A study of Mus musculus with 6 samples.

Results

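The transcripts described here are 7 of the 48395 symbols in the count tables of 6 mouse LSK libraries: Gfap, Sparcl1 and Aldoc of astrocytes, Mobp and Mbp of myelin, Eef1a2 of neurons and muscle, and Sparc, which is also made by blood and stromal cells. They were chosen by symbol because their levels differed between the libraries of this comparison, so their levels are given as a description, with no test. LSK cells are the lineage-negative, Sca-1-positive, c-Kit-positive fraction of bone marrow in which the blood stem cells and their first progeny are found. All 6 libraries came from marrow of Mx1Cre; Jak2V617F/+ mice (written Jak2VF/+), in which Cre recombinase under the interferon-inducible Mx1 promoter brings about expression of an activating mutation of the Jak2 kinase. The donors had been primed with 5-fluorouracil. Their marrow cells were infected with lentivirus carrying either no insert (vector, 3 libraries) or Hmga2 (3 libraries) and transplanted into C57BL/6 recipients irradiated with 2 doses of 550 cGy, from which LSK cells were sorted 32 weeks later. The labels do not state ages, pooling of animals, the share of transduced cells or the share of recipient cells left in the sorted fraction. The libraries of a group are labelled biological replicates, without saying whether each came from its own mouse.

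Astrocytes are the star-shaped support cells of the central nervous system, and Gfap encodes the intermediate filament by which they are usually recognised. Oligodendrocytes wrap axons in myelin, whose protein genes include Mbp, Mobp, Mog and Mag. Neither cell type lives in bone marrow, but nerve fibres enter it with non-myelinating Schwann cells, which also contain Gfap. Several glial genes are used elsewhere: Mbp lies within a longer transcription unit, golli, that is active in blood cells, Sparc is made by megakaryocytes, platelets and bone-forming cells, and Sparcl1 by endothelial and stromal cells.

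Total counts ran from 24818011 to 35471806 per library, at which 3 reads equal 0.0846 to 0.121 per 1000000 counts of the unscaled total. Levels are given as CPM, the counts of a gene per 1000000 of its library after scaling the library by its TMM factor. The sorting markers were present in all libraries: Kit ran from 248 to 375 CPM, Cd34 from 526 to 795 CPM and Ly6a, which encodes Sca-1, from 19.3 to 59.1 CPM. Hmga2 itself had 5.96, 5.04 and 7.03 CPM with vector, against 2.63, 6.63 and 5.91 CPM in the others, so the latter are called the libraries labelled Hmga2. Immunoglobulin RNA stood high in vector replicates 1 and 3 and Hmga2 replicate 2 (Igha at 8930, 5470 and 2530 CPM, against 193 to 236 CPM in the rest). The Y-linked gene Ddx3y stood high in Hmga2 replicates 1 and 3 (59.1 and 33.5 CPM, against 0 to 4.5 CPM).

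Gfap and Mobp are the members with the least known use outside nervous tissue, and their promoters are shown to make visible which letters lie at the starts of genes that were high in the same libraries. Both are RefSeq sequences on GRCm38.p6, from 250 bases before to 50 bases after the start, read along the gene. Gfap lies on the minus strand (chr11:102897151-102897450) and Mobp on the plus strand (chr9:120149492-120149791). Capitals mark matches on either strand to TTCNNNGAA, the palindrome bound by STAT factors, and to ACAAAG, a core bound by SOX factors.
Gfap: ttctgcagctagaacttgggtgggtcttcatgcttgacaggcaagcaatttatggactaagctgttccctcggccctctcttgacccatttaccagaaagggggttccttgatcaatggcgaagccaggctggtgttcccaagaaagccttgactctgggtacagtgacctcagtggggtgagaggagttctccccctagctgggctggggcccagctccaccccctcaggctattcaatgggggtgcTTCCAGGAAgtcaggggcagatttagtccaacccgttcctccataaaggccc
Mobp: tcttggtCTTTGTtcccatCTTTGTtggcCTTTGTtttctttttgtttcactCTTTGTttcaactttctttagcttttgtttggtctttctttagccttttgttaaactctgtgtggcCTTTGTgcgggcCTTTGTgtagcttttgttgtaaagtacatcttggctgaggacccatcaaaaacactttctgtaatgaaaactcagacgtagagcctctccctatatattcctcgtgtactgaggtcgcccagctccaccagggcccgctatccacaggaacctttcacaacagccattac
The Gfap promoter held 1 match to TTCNNNGAA, and none to ACAAAG. The Mobp promoter held 6 matches to ACAAAG, and none to TTCNNNGAA. Of 32817 promoters of this length, 8.29% held TTCNNNGAA and 18.7% held ACAAAG. Neither promoter held TATAAA (13.6% of promoters) or CCAAT (37.4%). The motifs do not overlap each other in these windows, and a match is a description of letters only. Of the 7 members, 5 had a promoter entry.

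The astrocyte filament gene Gfap (chromosome 11, positions 102887336 to 102900912 on mm10) reached 11.6, 9.57 and 3.77 CPM in vector replicates 1, 2 and 3. Under the Hmga2 label it came to 1.24, 1.56 and 0.728 CPM, and later values follow the same order of libraries, vector first. All 3 vector libraries lay above all 3 libraries labelled Hmga2, and the vector libraries spread 3.08-fold among themselves. These levels rest on 25 to 368 reads a library. The log2 difference (labelled Hmga2 less vector) came to -2.82 (standard error 0.48). In a bulk sample, fewer cells of a type and less RNA per cell cannot be told apart.

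Sparcl1 encodes hevin, a secreted protein by which astrocytes promote synapses (chromosome 5, positions 104079111 to 104113733). It was at 14.8, 8.38 and 1.84 CPM with vector, against 0.622, 0.715 and 0.728 CPM under the Hmga2 label. The labelled Hmga2 libraries were close to each other, whereas the vector libraries spread 8.02-fold, with replicate 3 lowest. The log2 difference was -3.59 with a standard error of 0.70.

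Aldoc encodes the brain form of the glycolytic enzyme aldolase (chromosome 11, positions 78322968 to 78327781). Its levels were 21, 13.3 and 5.07 CPM with vector, against 4.55, 6.28 and 3.53 CPM under the Hmga2 label. The groups overlapped, since Hmga2 replicate 2 lay above vector replicate 3. The log2 difference of -1.46 (standard error 0.49) was -0.95 without vector replicate 1 and -0.09 without vector replicates 1 and 2. The muscle and blood form Aldoa was at 485 to 609 CPM in the 6 libraries, and no 50-base window of Aldoc transcripts occurred in transcripts of another gene.

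**Figure D1:**
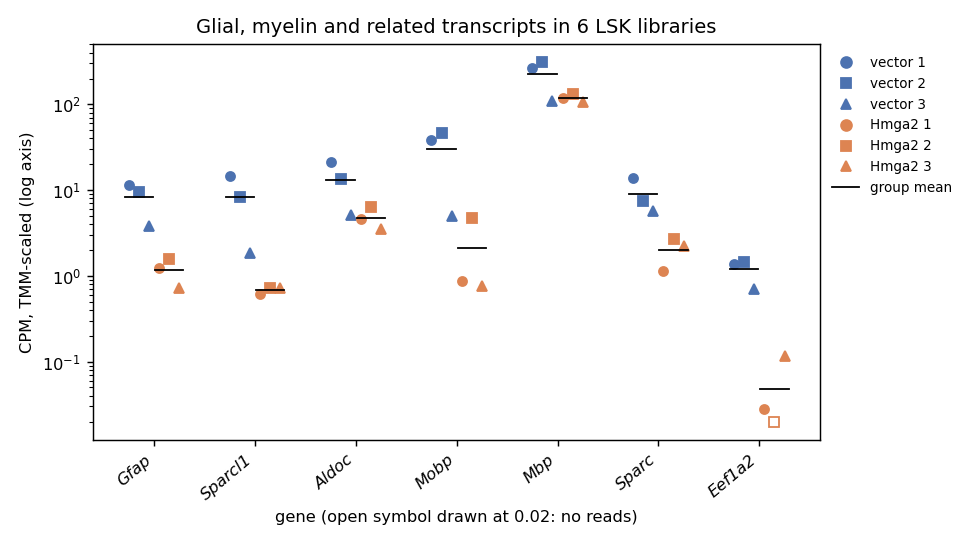
CPM of the 7 transcripts (log axis) in each library, vector in blue and labelled Hmga2 in orange, with the symbol giving the replicate number and a bar the group mean (n = 3 libraries each). Vector replicates 1 and 2 are the highest pair for all 7 genes, and the groups overlap for Aldoc and Mbp.

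Mobp, encoding a small protein of compact central myelin (chromosome 9, positions 120149707 to 120181484), had the widest spread of the 7 among the vector libraries. It was at 38.7, 46.7 and 4.98 CPM with vector, against 0.876, 4.68 and 0.758 CPM under the Hmga2 label. Vector replicate 3 and Hmga2 replicate 2 were nearly level, with 119 and 144 reads, while vector replicates 1 and 2 had 1227 and 1216 reads. The log2 difference was -3.85 with a standard error of 1.02, and was -1.25 without vector replicates 1 and 2. Mobp shares 79 exon bases with the transcript Gm38642 on the same strand, and 0.614% of its 50-base windows occurred in other genes.

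Mbp, on chromosome 18, encodes myelin basic protein and, from golli, proteins of blood cells. It was the most abundant member, at 266, 312 and 108 CPM with vector, against 118, 133 and 107 CPM under the Hmga2 label. Vector replicate 3 lay within the range of the libraries labelled Hmga2, and only vector replicates 1 and 2 stood above it. The log2 difference of -0.94 (standard error 0.35) turned to 0.14 without these libraries. The tables give 1 row per symbol, so golli and myelin transcripts of Mbp were not separated here.

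Sparc encodes osteonectin, a collagen-binding protein of bone, stroma and platelets (chromosome 11, positions 55394500 to 55423183). It was at 13.9, 7.46 and 5.69 CPM with vector, against 1.13, 2.7 and 2.21 CPM under the Hmga2 label. The groups did not overlap, and the log2 difference was -2.16 with a standard error of 0.44. Few other genes listed for megakaryocytes or stroma were, like Sparc, highest in vector replicates 1 and 2. Of 15 other megakaryocyte and platelet genes, 14 had a higher mean in the libraries labelled Hmga2, with Itga2b at 435, 358 and 353 CPM and 390, 497 and 395 CPM. Of these 15 genes, 0 were highest in vector replicates 1 and 2, near the 6.51% of symbols above 0 for a list this short. Of 16 other stroma genes, 8 had a lower mean and 8 a higher one, and 1 (6.25%) was highest in vector replicates 1 and 2, beside 6.51% of symbols above 0. The collagen gene Col1a1 was at 0.63, 0.461 and 0.335 CPM and 1.27, 1.92 and 0.758 CPM. Fn1, with a lower mean, was at 11.6, 6 and 10.7 CPM and 6.39, 8.42 and 9.06 CPM.

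Eef1a2 encodes the translation elongation factor form of neurons, heart and skeletal muscle (chromosome 2, positions 181147653 to 181157014). Its counts were low, with 44, 38 and 17 reads in the vector libraries and 1, 0 and 4 reads in the libraries labelled Hmga2. That is 1.39, 1.46 and 0.712 CPM against 0.0283, 0 and 0.117 CPM, and the groups did not overlap. The log2 difference of -4.48 (standard error 0.77) rests on 5 reads in the libraries labelled Hmga2 and was -3.45 with a prior count of 2. The form of most other tissues, Eef1a1, was at 11000 ± 466 and 11300 ± 691 CPM (SD, n = 3 each). No 50-base window of Eef1a2 occurred in another gene. Most muscle genes gave few reads: Myh1 and Myh2 had none in any library, Mb and Actc1 at most 1 read in any library, and Acta1 was at 0.423 to 0.945 CPM. The most abundant of the list, Mylpf, was at 3.08 to 5.54 CPM, and Tnni2 was at 0.763 to 1.13 CPM. The summed level of 14 muscle genes was 6.43 to 8.83 CPM with vector and 5.4 to 5.92 CPM under the Hmga2 label.

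All 7 members passed the count filter, and all 7 had a negative log2 difference, beside 49.6% of genes tested. Of the 7, 5 had groups that did not overlap, lower in the libraries labelled Hmga2, beside 5.88% of the 16739 genes tested. All 7 were highest in vector replicates 1 and 2, beside 6% of genes tested, and all 7 were lowest in replicate 3 among the vector libraries. The members were chosen from these values, so the shares carry no support. Replicate 1 was the higher of the pair for Gfap, Sparcl1, Aldoc and Sparc, and replicate 2 for Mobp, Mbp and Eef1a2. Without vector replicates 1 and 2, vector replicate 3 alone gave log2 differences of -1.68 for Gfap, -1.42 for Sparcl1, -1.50 for Sparc and -3.75 for Eef1a2.

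Astrocyte genes other than the members were mostly highest in the same pair of libraries. Like the other lists, this list was drawn up with earlier results of these data known. Of 26 other astrocyte genes, 21 had a lower mean in the libraries labelled Hmga2 and 5 a higher one. Vector replicates 1 and 2 were the highest pair for 17 of the 26 (65.4%), beside 6.51% of the 25682 symbols with a rounded count above 0. The groups did not overlap for 9 of them (34.6%), all lower, beside 5.09%. Slc1a2, the main astrocyte glutamate transporter, reached 7.22, 3.73 and 1.21 CPM with vector, against 0.396, 0.878 and 0.495 CPM under the Hmga2 label. It was highest in vector replicate 1, and lower in each library labelled Hmga2 than in any vector library. Cpe, a peptide-processing enzyme also of neurons and glands, was at 7.28, 5 and 1 CPM, against 0.17, 0.65 and 0.699 CPM. The water channel gene Aqp4, a defining astrocyte gene, had 43, 22 and 0 reads and 0, 2 and 2 reads. Aqp4 reads were thus almost confined to vector replicates 1 and 2. Aldh1l1, a more abundant gene of the list, did not share this order. It was at 25.6, 14.5 and 18.7 CPM, against 23.6, 25.8 and 19 CPM, with a log2 difference of 0.22.

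Of these 26 genes, 15 passed the count filter, with a median log2 difference of -0.75 against 0.00 over all genes tested. A gene can pass the filter through the group in which it is high, so this median is not a value for all 26. At an adjusted p under 0.05, edgeR called 0 of the 15, as it called 0 of all 16739 genes. At an unadjusted p under 0.05 it took 8 of the 15, all lower, beside 3.36% of genes tested lower and 2.23% higher (5.59% in all). DESeq2 called 4, among them Slc1a2, S100b and Cpe, all lower, beside 0.371% of its genes called lower and 0.0538% called higher (0.425% in all). The log2 difference was -2.78 with a standard error of 0.66 for Slc1a2 (edgeR adjusted p = 0.855, DESeq2 adjusted p = 0.00893). The more abundant genes of the list differed in their order. Apoe, also a macrophage gene, was at 189, 302 and 448 CPM, against 365, 467 and 291 CPM, and the glutamine synthetase gene Glul at 226, 176 and 190 CPM, against 230, 272 and 210 CPM. The sodium pump subunit gene Atp1b2 was highest in vector replicates 1 and 2, at 80, 112 and 47 CPM, against 57.7, 35.6 and 33.5 CPM. So was Ndrg2, at 28.8, 21.7 and 12.5 CPM, against 11.3, 13.9 and 12.3 CPM. Apoe and Glul dominate the sum, and the summed level of the 26 ranged from 633 to 752 CPM in the vector libraries and from 622 to 843 CPM in the libraries labelled Hmga2.

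**Figure D2:**
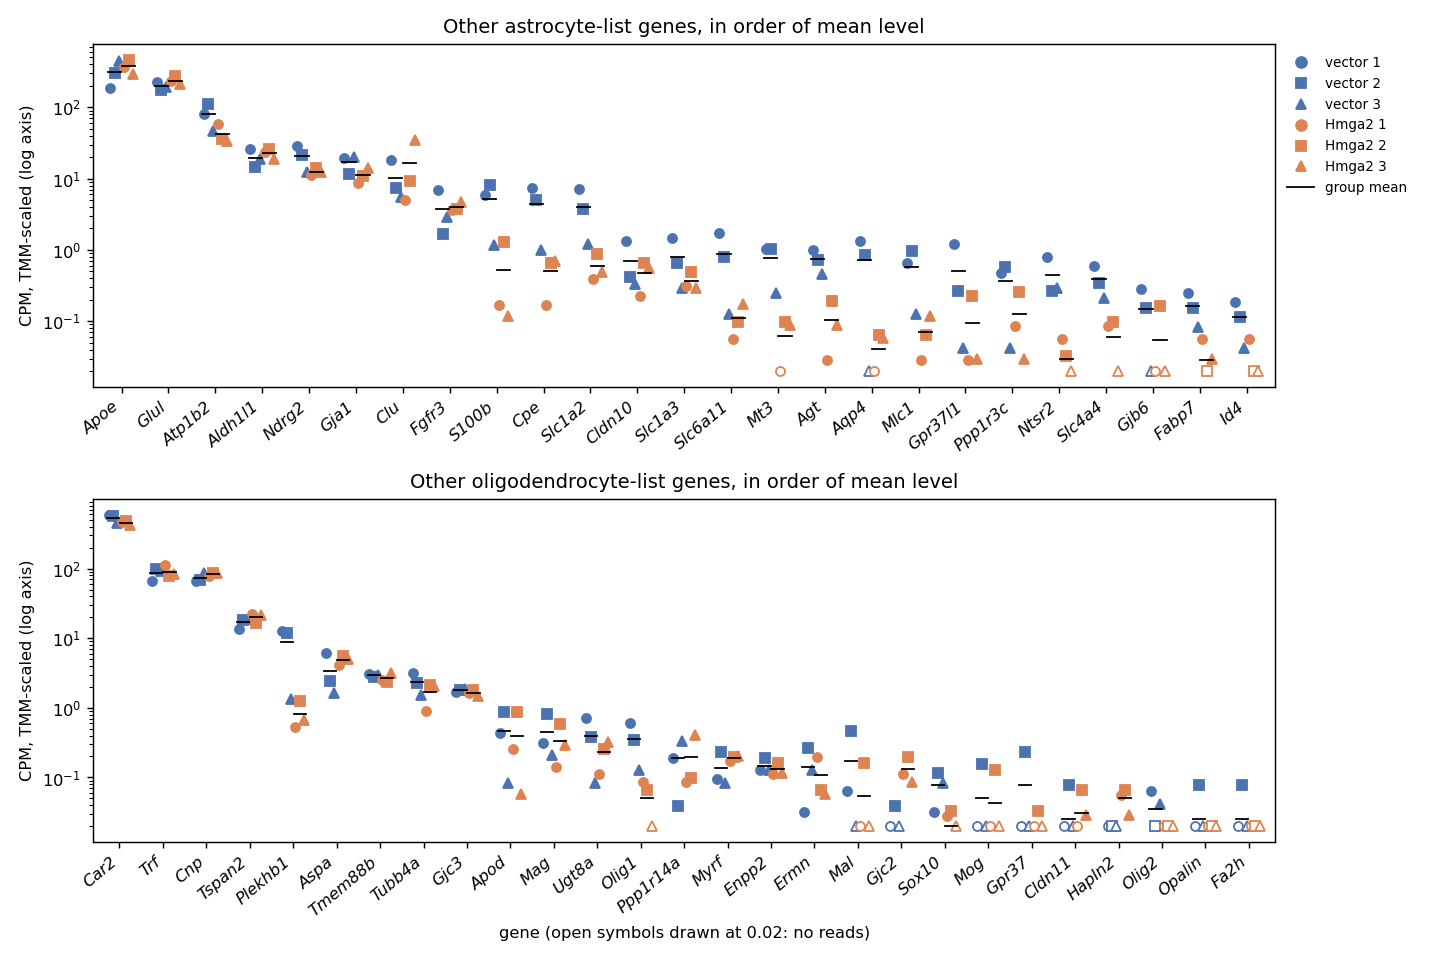
CPM (log axis) of 25 other astrocyte genes (upper panel) and 27 other oligodendrocyte genes (lower panel) in each library, ordered by mean level, with bars for group means. Most astrocyte genes below 10 CPM are highest in vector replicates 1 and 2, and Plekhb1 in the lower panel is at 12.9 and 12 CPM in that pair and at most 1.34 CPM elsewhere.

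Of the oligodendrocyte genes, a minority shared the order of the members. Of 28 other oligodendrocyte genes, 19 had a lower mean in the libraries labelled Hmga2 and 9 a higher one. Vector replicates 1 and 2 were the highest pair for 6 (21.4%), beside 6.51% of symbols above 0. The groups did not overlap, lower in the libraries labelled Hmga2, for 2 (7.14%, Plekhb1 and Olig1), a share near the 5.09% of all symbols above 0. In the other direction 2 genes did not overlap, beside 4.44%. Plekhb1, a membrane protein gene of myelinating and photoreceptor cells, was at 12.9, 12 and 1.34 CPM, against 0.537, 1.27 and 0.67 CPM. As for Mobp, vector replicates 1 and 2 stood far above the rest, and vector replicate 3 and Hmga2 replicate 2 were nearly level. Its log2 difference was -3.41 with a standard error of 0.82 (edgeR adjusted p = 0.855, DESeq2 adjusted p = 0.000708). Of the 12 genes of the list that passed the filter, edgeR called 0, 1 had an unadjusted p under 0.05 (3.36% of all genes tested did so in that direction), and DESeq2 called 1, Plekhb1 (0.371%); the median log2 difference was -0.19.

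Other defining myelin genes had few or no reads where Mobp was high. In vector replicate 2, where Mobp had 1216 reads, Mag had 21, Mal 12, Mog 4, Cldn11 2 and Opalin 2. In vector replicate 1, where Mobp had 1227 reads, Mag had 10, Mal 2, and Mog, Cldn11 and Opalin none. Per kilobase of exon, the level of Mobp in vector replicate 2 was 6.82 CPM, against 0.198 CPM for Mag and 0.0902 CPM for Mog, and 36.9 CPM for Mbp. Among lineage factor genes of oligodendrocytes, Sox10 had at most 3 reads and Olig2 at most 2 reads in any library. Olig1 had 19, 9 and 3 reads, against 3, 2 and 0, highest in vector replicates 1 and 2. Cnp, Trf and Car2, list members that blood cells also use, were at 66.5 to 87.8, 65.6 to 111 and 419 to 597 CPM over the 6 libraries.

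**Figure D3:**
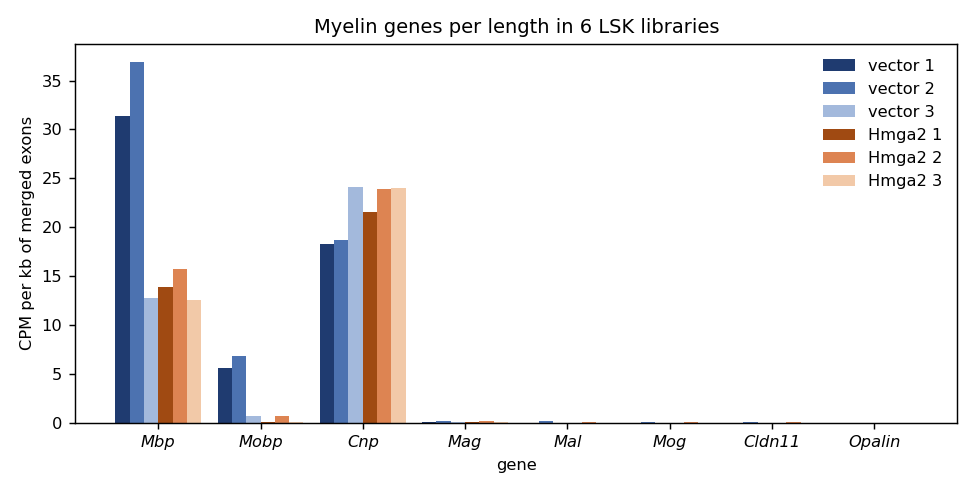
Level per kilobase of merged exons (CPM per kb, linear axis from 0) of 8 myelin genes in each library, with 1 bar per library and no error bar. Mobp is highest in vector replicates 1 and 2, and Mag, Mal, Mog, Cldn11 and Opalin are near 0 in all 6 libraries.

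Many neuron genes gave few reads. Of 29 other neuron genes, 21 had a lower mean in the libraries labelled Hmga2, 13 (44.8%) were highest in vector replicates 1 and 2, beside 6.51% of symbols above 0, and 6 (20.7%) had groups that did not overlap, all lower, beside 5.09%. Snap25, a synaptic vesicle fusion gene, had 21, 27 and 0 reads in the vector libraries and 0, 0 and 4 in the libraries labelled Hmga2. Vsnl1, a neuronal calcium sensor gene, had 14, 18 and 1 reads and 1 read in each library labelled Hmga2. Abundant list members such as Nrgn, also a platelet gene, did not share the order, with Nrgn at 145, 79 and 141 CPM and 79.3, 206 and 141 CPM. Of the 16 that passed the filter, edgeR called 0 and DESeq2 0, 0 had an unadjusted p under 0.05, and the median log2 difference was 0.05.

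Markers of other cells that could carry glial transcripts varied. Schwann cell genes Pmp2, Scn7a and Foxd3 had no read in any library, Ngfr was at most 0.126 CPM, and Cdh19 had reads in vector replicate 2 only, 0.154 CPM. The summed level of 15 Schwann genes other than Gfap was 18.7 to 31.3 CPM in the vector libraries and 19 to 23.7 CPM in the libraries labelled Hmga2. Prx and S100b were among its most abundant genes. Of the 12 with reads, 4 (33.3%) were highest in vector replicates 1 and 2, beside 6.51% of symbols above 0. Of 8 oligodendrocyte precursor genes, all below 1 CPM in every library, Gpr17, Lhfpl3 and Neu4 had no reads. Bcan, a proteoglycan gene that astrocytes also use, had 24, 18 and 0 reads, against 0, 6 and 1, and was thus highest in vector replicates 1 and 2. Ptprz1 had 11 reads in vector replicate 1 and at most 2 elsewhere. The microglia gene Sall1 was at most 0.308 CPM. Of 12 microglia genes and of 13 endothelial genes, 0 were highest in vector replicates 1 and 2, beside 6.51% of symbols above 0. For lists this short, 0 lies near that share. The endothelial genes Cdh5 and Cldn5 were at most 0.536 and 0.466 CPM. More abundant genes of these lists were present in every library. Csf1r and C1qb of the microglia list were at 45.2 to 93.6 and 6.53 to 55.1 CPM. Pecam1 and Vwf of the endothelial list were at 76.5 to 115 and 42.5 to 192 CPM.

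Within a library, the ratio of 2 genes' reads does not depend on depth. Slc1a2 reads were 0.622, 0.39 and 0.322 times those of Gfap in the vector libraries and 0.318, 0.562 and 0.68 times in the libraries labelled Hmga2, while Gfap itself varied from 25 to 368 reads. The 95% exact binomial intervals, which cover counting error only, overlapped except for vector replicate 1 (0.525 to 0.736) against vector replicates 2 (0.305 to 0.494) and 3 (0.204 to 0.495). S100b, a calcium-binding protein gene of glia, had 0.154, 0.174 and 0.235 reads per Mobp read, and 0.194, 0.278 and 0.154. The intervals overlapped except for vector replicate 1 (0.131 to 0.18) against Hmga2 replicate 2 (0.191 to 0.397). S100b ranked 1 among 11970 genes in likeness to Mobp over these same libraries (given below), so its steady ratio to Mobp carries no support. Slc1a2 was named for its small p in this same comparison, so its ratio to Gfap carries no support either. Some other pairs varied more than these. Between libraries, Sparcl1 ran from 0.458 to 1.27 reads per Gfap read and S100b from 0.136 to 0.851. Plekhb1 ran from 0.257 to 0.885 reads per Mobp read. Mobp and Gfap did not keep a fixed ratio to each other. There were 3.33 Mobp reads per Gfap read in vector replicate 1 (interval 2.97 to 3.76) and 4.88 in vector replicate 2 (4.26 to 5.62). The ratio was 3 in Hmga2 replicate 2 (2.15 to 4.25), and 1.32, 0.705 and 1.04 in vector replicate 3 and Hmga2 replicates 1 and 3. The last 3 intervals lay below the first 3. Aldoc and Mbp had more reads per Gfap read in each library labelled Hmga2 than in any vector library: 3.66 to 4.84 against 1.34 to 1.81 for Aldoc, and 84.9 to 147 against 23 to 32.6 for Mbp.

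**Figure D4:**
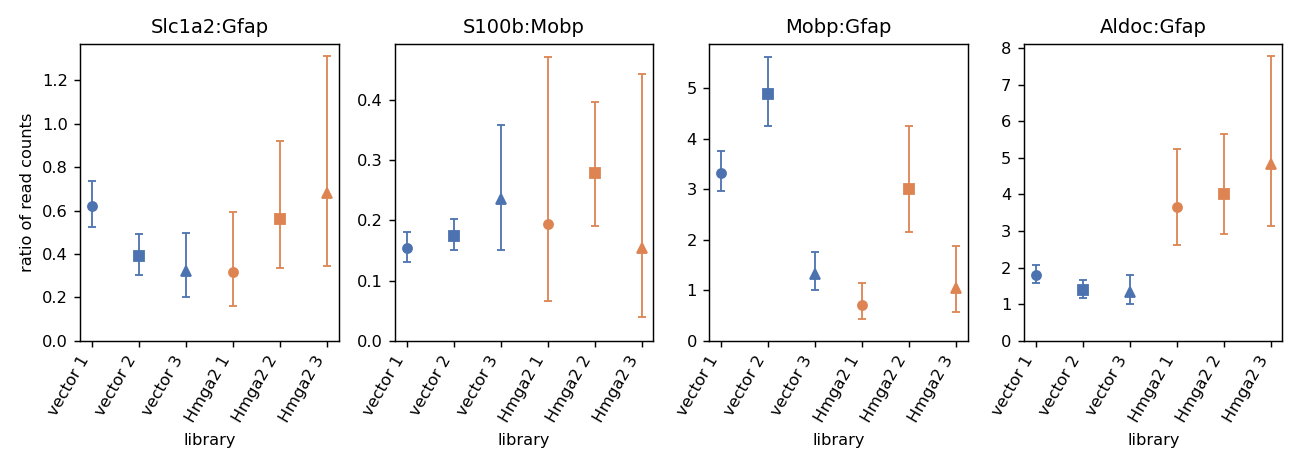
Ratio of read counts of 4 gene pairs within each library (linear axis from 0), with 95% exact binomial intervals for counting error. Slc1a2 per Gfap lies between 0.318 and 0.68 in all 6 libraries, whereas Mobp per Gfap is highest in vector replicates 1 and 2 and Hmga2 replicate 2. Slc1a2 and S100b were named from values of these same libraries. Some pairs not drawn varied more than Slc1a2 per Gfap, such as Sparcl1 per Gfap (0.458 to 1.27).

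The genes most like Gfap and Mobp over the 6 libraries were ranked by Pearson correlation of log2 CPM (with 0.5 added) among 11970 genes, as a description of libraries that share their depth and their grouping. Nearest to Gfap were Mt2 (0.988), Fam101b (0.984), Necab3 (0.984), Mfsd9 (0.98), Abcb6 (0.976), Btnl10 (0.974), Mpg (0.973) and Xylb (0.972), of which the metallothionein gene Mt2 was at 51.2, 42.7 and 31.3 CPM, against 13.9, 18.2 and 12.5 CPM. None of these 8 is on the astrocyte list. Nearest to Mobp were S100b (0.998), Prom1 (0.995), Lmna (0.984), Fam210b (0.983), St3gal5 (0.983), Bcas1 (0.981), Mpg (0.981) and Ublcp1 (0.98). S100b was at 5.96, 8.15 and 1.17 CPM, against 0.17, 1.3 and 0.117 CPM. Bcas1, a gene of newly myelinating oligodendrocytes also used elsewhere, was at 9.3, 11.4 and 2.39 CPM, against 1.47, 2.28 and 1.34 CPM. Mobp ranked 20 for Gfap (0.962).

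Other measures differed between the libraries beside these genes. Granulocyte genes were higher in the vector libraries, with 9 of 12 listed genes not overlapping (75%, beside 5.88% of genes tested) and 5 highest in vector replicates 1 and 2 (41.7%, beside 6%), and Elane, encoding neutrophil elastase, at 348, 843 and 253 CPM against 187, 173 and 149 CPM. Of 12 erythroid genes, 6 (50%, beside 6%) were highest in vector replicates 1 and 2. The groups did not overlap for 4 (33.3%, beside 5.88%), lower in the libraries labelled Hmga2. DESeq2 called 5 of the granulocyte genes lower and 3 of the erythroid genes, Rhd, Klf1 and Blvrb, beside 0.371% of its genes. Of either list edgeR called 0. Rhd, a blood group protein gene, was at 24.2, 36.2 and 18.9 CPM, against 11.1, 11.3 and 6.35 CPM. Both lists were drawn up with earlier values of these genes known. Their part in the differences of the glial genes was not tested. Immunoglobulin RNA did not share the order: vector replicate 2, with Gfap at 9.57 CPM, had the lowest Igha level, 193 CPM. Mobp and S100b were lowest in Hmga2 replicates 1 and 3, the libraries with high Ddx3y, and the part of this in the difference was not tested.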

How the data were processed

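RNA sequencing of LSK cells gave 1 deposited table per library, with expected counts (estimated counts per gene symbol) as the authors' unit, judged from the values: none was negative, and 67.3% to 70.1% of values above 0 were whole within 1e-06. Per the submitters' processing notes, Partek 3.0, Bowtie2 and build mm10 were used; the sources used here name no counter, annotation or strandedness, so reads of antisense neighbours cannot be told apart. Counts were rounded and fitted with edgeR 4.0.16 in R 4.3.3 (filterByExpr, TMM, quasi-likelihood test on group, Benjamini-Hochberg adjustment over 16739 genes, threshold 0.05), a procedure tested on simulated data. DESeq2 1.42.0 was the other tool. Standard errors come from the F statistic. With unstated sources of replicates, p-values measure the spread between these libraries, and each pair within a group differed beyond sampling noise (chi-square over degrees of freedom from 24.8 to 57).

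The 7 members, the 21 lists and the tests were chosen with earlier results of these data known. Other named genes were taken from the 4 most abundant of a list, those without reads, and the 8 most like Gfap or Mobp. For the astrocyte, oligodendrocyte and neuron lists, they were also taken from the 4 with the smallest p. Not every gene that meets this rule is named. Aqp4, Mag, Mal, Mog, Cldn11, Opalin, Sox10, Olig1, Olig2, Snap25, Vsnl1, Ngfr, Cdh19, Sall1, Cdh5, Cldn5, Col1a1, Mb, Actc1, the sorting markers, Ndrg2, Rhd, Klf1, Blvrb, Elane, Igha and Ddx3y are outside this rule and were picked with their values in view. Exon lengths, positions and transcript windows are from GENCODE M21, promoters from RefSeq. Alternatives were a replicate block, other scaling, no count filter, DESeq2, a prior count of 2 and each library left out. Leaving out vector replicates 1 and 2 together was added after seeing the data. Some genes of the lists are counted in the lists but not reported here by name.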

Additional observations from a re-analysis of the deposited data

How the results depend on the processing

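The count of genes called by edgeR, 0, was 1 (Mt1) without the count filter and 71 with DESeq2, and 0 with each library left out. DESeq2 called 4 of the other astrocyte genes and 1 of the other oligodendrocyte genes, and otherwise 0 genes of these lists or of the neuron list were called under any alternative. The replicate block called 0 genes and gave log2 differences of -2.74 for Gfap, -3.19 for Sparcl1, -2.11 for Sparc, -1.27 for Aldoc, -3.81 for Mobp, -0.82 for Mbp and -4.50 for Eef1a2. The labels do not say what a shared number means, and deviations of same-numbered libraries correlated at -0.21, -0.5 and -0.26, so the numbers were not used as pairs.

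All 7 members kept a negative log2 difference under the block, other scaling, no count filter, DESeq2, the prior count of 2 and each library left out. Leaving out each library in turn gave -3.16 to -2.50 for Gfap, -4.06 to -2.89 for Sparcl1, -2.43 to -1.71 for Sparc, -1.84 to -0.95 for Aldoc, -5.20 to -3.38 for Mobp, -1.27 to -0.65 for Mbp and -5.96 to -3.97 for Eef1a2. With a prior count of 2, Eef1a2 was at -3.45. With vector replicates 1 and 2 both left out, the log2 difference was -1.68 for Gfap, -1.42 for Sparcl1, -1.50 for Sparc, -0.09 for Aldoc, -1.25 for Mobp and -3.75 for Eef1a2, and Mbp turned to 0.14; the other oligodendrocyte genes lower were 5 of 12 in place of 8, and the other neuron genes lower 4 of 16 in place of 8. That setting leaves a single vector library, whose spread is taken from the other group. At this depth, genes with under 3 reads in a library cannot be told from 0.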

Other observations

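Many marker genes of other solid organs gave no reads, as did many symbols of any kind. Of all 48395 symbols, 25682 had a rounded count above 0 in at least 1 library, so the counts below do not set these markers apart. Of 12 pancreas genes 7 had no read in any library, and of 11 liver genes 5 had none, Apoc3, Serpina1a, Fgb, Fga and Ahsg. Of 10 kidney genes 5 had none, of 10 testis genes 5 had none, of 7 lung genes 4 had none and of 8 skin genes 4 had none. Albumin, Alb, had reads in vector replicates 2 and 3 only, at 0.0384 and 0.461 CPM. Ckm, the muscle creatine kinase gene, was highest in vector replicate 3, at 2.55 CPM against 0.0945 and 0.5 CPM in vector replicates 1 and 2 and 0.254 to 0.262 CPM in the libraries labelled Hmga2. Dmkn, an epidermal gene, was at 2.46, 5.04 and 3.68 CPM with vector, against 1.5, 1.24 and 1.4 CPM under the Hmga2 label. Clu, which encodes the chaperone clusterin of astrocytes and other cells, was highest in Hmga2 replicate 3, at 34.9 CPM against 4.95 to 18.1 CPM in the other 5 libraries. Genes of this paragraph were chosen after their values were seen.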
